A study of Mus musculus with 4 samples.

Results

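The Polycomb genes described here are 10 genes chosen by symbol from the 47561 gene symbols of the series: the PRC2 genes Ezh1, Ezh2, Eed, Suz12 and Jarid2, the PRC1 genes Bmi1, Ring1, Rnf2 and Cbx7, and Asxl1 of the Polycomb deubiquitinase. All 10 were present in the 4 libraries, and all 10 had at least 1 FPKM (fragments scaled to the length of the transcript and the size of the library) in every library. RNA was sequenced from LSK cells, a bone marrow fraction without lineage markers and with Sca-1 and c-Kit on its surface, in which blood stem cells and multipotent progenitors lie. Cells came from C57BL/6 mice aged 12 weeks, with 1 library per mouse and 2 mice per genotype. The mice labelled Metrn f/f carried floxed Metrn alleles and are called controls (control 1 and control 2). The mice labelled Metrn-cKO, called cKO 1 and cKO 2, had those floxed alleles too and LysM in addition. LysM is the lysozyme locus used to drive deletion in macrophages, monocytes and neutrophils, so deletion is aimed at myeloid cells rather than at the LSK cells that were sequenced. The series asks how Meteorin, the secreted protein encoded by Metrn, acts from macrophages on stem and progenitor cells.

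Polycomb proteins keep genes silent by marking the histones around them. PRC2 adds methyl groups to H3K27, PRC1 adds ubiquitin to histone H2A, and a deubiquitinase complex that contains Asxl proteins takes that ubiquitin off again. In blood stem cells Bmi1 is known for sustaining self-renewal by silencing the Cdkn2a locus, Ezh1 and Ezh2 are alternative catalytic subunits of PRC2, and ASXL1 and EZH2 are recurrently mutated in human myeloid neoplasms.

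The promoters of Ezh2, Ezh1 and Suz12 are shown because the catalytic paralogs Ezh1 and Ezh2 followed different orders across the libraries and Suz12 shared the split of Ezh1, high in control 1 and cKO 2. Each runs 5′ to 3′ on the gene's strand, from 250 bases before to 30 bases past the RefSeq start site (GRCm38.p6), and capitals mark TTTGGCGC or TTTCCCGC, sequences of the kind bound by E2F factors of the cell cycle.
Ezh2, chr6:47595001-47595280, minus strand: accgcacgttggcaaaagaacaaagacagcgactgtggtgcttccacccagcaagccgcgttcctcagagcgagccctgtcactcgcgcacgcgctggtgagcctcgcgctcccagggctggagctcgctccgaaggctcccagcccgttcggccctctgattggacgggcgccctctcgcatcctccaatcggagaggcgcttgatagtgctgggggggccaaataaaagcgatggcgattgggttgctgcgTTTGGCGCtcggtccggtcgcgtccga
Ezh1, chr11:101226434-101226713, minus strand: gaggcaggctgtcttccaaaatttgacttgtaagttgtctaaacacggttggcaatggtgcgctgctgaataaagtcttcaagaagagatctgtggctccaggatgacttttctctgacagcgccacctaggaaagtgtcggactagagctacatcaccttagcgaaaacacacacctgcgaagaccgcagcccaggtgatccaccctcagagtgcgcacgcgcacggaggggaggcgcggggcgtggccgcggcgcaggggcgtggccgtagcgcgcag
Suz12, chr11:79992856-79993135, plus strand: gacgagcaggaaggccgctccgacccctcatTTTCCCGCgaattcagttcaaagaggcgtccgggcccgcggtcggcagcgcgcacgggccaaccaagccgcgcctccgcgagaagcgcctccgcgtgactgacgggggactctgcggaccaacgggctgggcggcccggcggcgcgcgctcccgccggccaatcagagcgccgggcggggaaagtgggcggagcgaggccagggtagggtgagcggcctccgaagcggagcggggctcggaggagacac
In Ezh2 the sequence TTTGGCGC began 3 bases after the start base, and in Suz12 TTTCCCGC began at position -219 from it. Neither sequence was found on either strand in the other 8 members. TTTGGCGC occurred in 0.469% and TTTCCCGC in 1.008% of all 32851 promoter windows of this length, so both are rare, and a match describes these letters only. RefSeq held 11 windows for the 10 members, with Jarid2 represented by 2 start sites.

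The libraries differed more within a genotype than between the most alike libraries of the 2 genotypes. Summed FPKM of 10 neutrophil markers ran from 1905 in cKO 2 and 2449 in control 1 to 30992 in control 2 and 55599 in cKO 1. Sums of 11 erythroid markers ran from 3227 to 37943 and of 11 B and plasma cell markers from 68.1 to 1161, again low in control 1 and cKO 2, although the B cell marker Ms4a1 was listed at 0 in cKO 2. Sums of 10 macrophage and monocyte markers ran from 369 to 1897 and of 10 T and NK cell markers from 148 to 273, with the T cell genes Cd3e, Cd3g and Trac listed at 0 in cKO 2. Most of the T and NK cell sum was Nkg7, with 149, 248, 170 and 144 FPKM in control 1, control 2, cKO 1 and cKO 2. All 12 markers of the LSK sort and of stem cells were present, but their sum was 1149 and 1282 in control 1 and cKO 2 against 582 and 442 in control 2 and cKO 1. Adgrg1, Cd34 and Flt3 carried much of that sum, whereas Ly6a, which encodes Sca-1, had 37.2, 83.2, 48.4 and 38.2 FPKM in control 1, control 2, cKO 1 and cKO 2 and was highest in control 2. In bulk libraries fewer cells of a type and less RNA per cell cannot be told apart. Metrn itself had 29.3 and 66.3 FPKM in the control libraries and 42.3 and 36.7 in the cKO libraries, with both cKO values between the control values. Deletion is aimed at myeloid cells, and these values do not check the genotype labels. Because read totals are not known, the counting error behind each value is unknown.

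**Figure D1:**
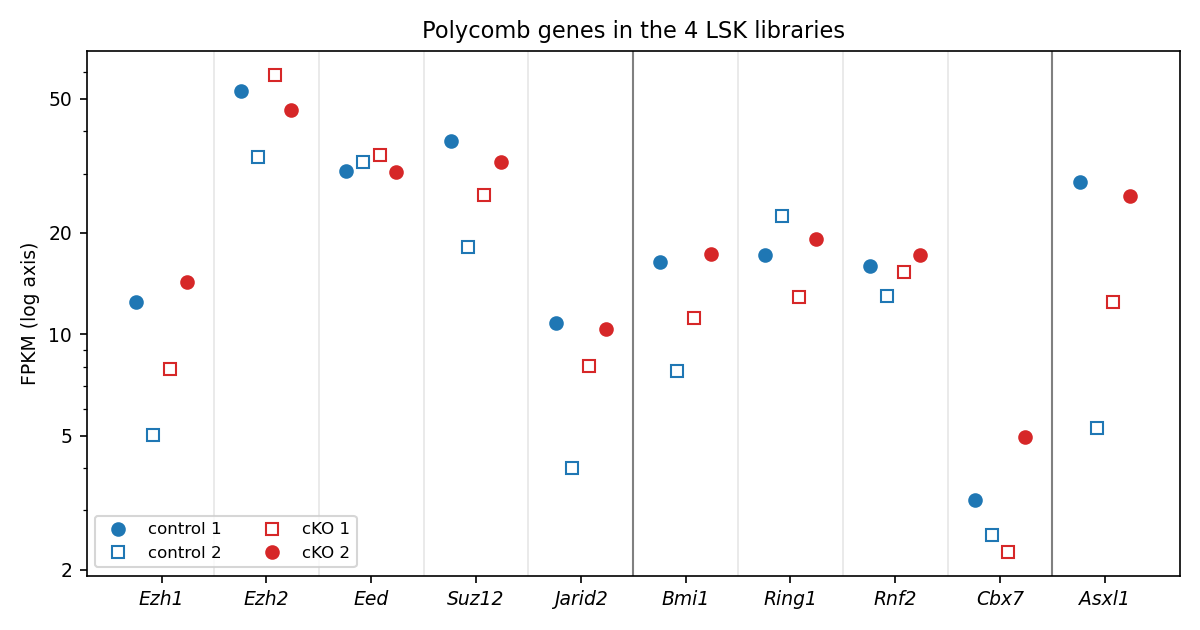
FPKM (log axis) of the 10 Polycomb genes in each library, with 1 point per mouse; blue is control (Metrn f/f) and red is cKO, and vertical grey lines separate PRC2, PRC1 and Asxl1. In no gene do both red points lie outside the range of the blue points on the same side, and the filled circles, control 1 and cKO 2, lie close together in most genes.

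PRC2 was led by Ezh2, its main methyltransferase in dividing cells, which was the most abundant of the 10 genes in all 4 libraries. Ezh2 (chromosome 6, positions 47530139 to 47595341 of GRCm38, 20 exons in the longest coding transcript) had 52.7 FPKM in control 1, 33.7 in control 2, 59.0 in cKO 1 and 46.4 in cKO 2. The highest and the lowest value were 1.75-fold apart, and the genotypes overlapped. The highest Ezh2 value stood in the library with the highest sum of 16 cycling cell genes, which was 1257, 1267, 1540 and 1226 FPKM in the same order, although control 2, with the lowest Ezh2 value, was not the lowest in that sum. As a percentage of all FPKM of the library, the same genes made up 0.32, 0.189, 0.274 and 0.297. On that measure control 2 was lowest, and control 1 rather than cKO 1 was highest. The part of cell cycling in the Ezh2 level was not tested.

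Ezh1, the paralog that carries more of the PRC2 activity once cells rest (chromosome 11, positions 101191115 to 101226463), had 12.5 and 5.03 FPKM in controls and 7.91 and 14.3 in cKO. Control 1 and cKO 2 were high and the other 2 libraries low, so each genotype held 1 high and 1 low mouse. Suz12, the scaffold that holds PRC2 together (chromosome 11, positions 79993106 to 80034123), had 37.4 and 18.2 FPKM in controls and 25.9 and 32.4 in cKO, in the same split. Jarid2, an accessory subunit that helps PRC2 engage chromatin (chromosome 13, positions 44729474 to 44921643), had 10.8 and 4.00 FPKM in controls and 8.03 and 10.4 in cKO. Its lowest value was again that of control 2, and the genotypes overlapped.

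Eed, the subunit that reads the H3K27 methyl mark and stimulates the enzyme (chromosome 7, positions 89954654 to 89980983), had the narrowest range of the 10 genes in the deposited values. It had 30.6 and 32.4 FPKM in controls and 34.0 and 30.4 in cKO, a 1.12-fold span. Within PRC2 the order of the means over 4 libraries was Ezh2 (48.0 FPKM), Eed (31.9), Suz12 (28.5), Ezh1 (9.91) and Jarid2 (8.30). Eed and Suz12 changed places between libraries, as Suz12 was above Eed in control 1 and cKO 2 and below it in the other 2, and so did not differ beyond their spread. Ezh1 and Jarid2 also changed places, in cKO 1.

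In PRC1 the E3 ligase subunits Ring1 and Rnf2, either of which can place the ubiquitin on H2A, were at similar levels. Ring1 (chromosome 17, positions 34020792 to 34024680) had 17.2 and 22.5 FPKM in controls and 12.9 and 19.2 in cKO. It was the only member with its highest value in control 2, and its lowest was in cKO 1. Rnf2 (chromosome 1, positions 151458004 to 151500955) had 16.0 and 13.0 FPKM in controls and 15.3 and 17.2 in cKO, a 1.32-fold span with overlapping genotypes. Rnf2 shares 158 bases with the oppositely oriented Trmt1l, with the strand setting not given in the sources used here. On its own strand Rnf2 shares 3029 bases with the unconfirmed gene model Gm36527, as Eed shares 408 with Gm45120. All overlaps given here and below are of whole gene spans with introns, and overlap of exons was not examined. Where exons of such same-strand pairs overlap, no strand setting would separate their reads.

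Bmi1, the RING finger partner of Ring1 and Rnf2 in canonical PRC1 (chromosome 2, positions 18677018 to 18686629, 10 exons), had 16.4 and 7.78 FPKM in controls and 11.2 and 17.3 in cKO. It showed the split of Ezh1 and Suz12, with the lowest value in control 2. Cbx7, a chromodomain protein that ties PRC1 to methylated H3K27 (chromosome 15, positions 79915807 to 79971119), was the least abundant of the 10 genes in every library. It had 3.22 and 2.54 FPKM in controls and 2.26 and 4.96 in cKO, so the 2 extreme values belonged to the 2 cKO mice. Its gene shares 100 bases with the oppositely oriented Apobec3, which had 53.4 to 99.4 FPKM. Ring1, Rnf2 and Bmi1, with means of 17.9, 15.4 and 13.2 FPKM, overlapped in their ranges, whereas every Cbx7 value lay below every value of those 3 genes.

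Asxl1, the chromatin scaffold that activates the H2A deubiquitinase Bap1 (chromosome 2, positions 153345829 to 153404007, longest coding transcript 6.98 kb), varied most. It had 28.4 FPKM in control 1, 5.28 in control 2, 12.5 in cKO 1 and 25.7 in cKO 2. The 5.39-fold span lay inside the control group, and both cKO values fell between the control values. Asxl1 stood above 79.2% of the 13148 genes tested in control 1 and above 40.6% of them in control 2. The gene spans of Asxl1, Ezh2, Eed, Suz12 and Jarid2 overlap annotated noncoding genes on the other strand. Where exons of such pairs overlap, which was not examined, their reads cannot be told apart without a known strand setting.

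The comparison of cKO with control asked whether deletion of Metrn in myeloid cells goes with a difference in the Polycomb genes of LSK cells. No Polycomb gene passed: 0 of 10 by limma on log2(FPKM + 1), where 0% of the 13148 genes passed in either direction with a smallest adjusted p of 1.00. Before adjustment, 0 of 10 members and 39 genes in all (0.297%) had a p under 0.05, and the lowest p of a member was 0.491, for Ezh2. In 0 of 10 members did both cKO values lie above or below both control values, against 12.0% of all genes (6.31% above and 5.73% below). The fitted difference was positive in 9 members and negative in Ring1, with a median of 0.23 on the log2 scale, while 57.6% of all genes were positive with a median of 0.07.

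The largest fitted difference was that of Asxl1, 0.48 (SE 0.79, 95% interval -1.42 to 2.38, adjusted p = 1.00 by limma), from 16.9 ± 16.4 FPKM in controls and 19.1 ± 9.32 in cKO (SD, n = 2 each). Jarid2 differed by 0.40 (SE 0.59) and Ezh1 by 0.37 (SE 0.59), with 8.74 ± 5.26 and 11.1 ± 4.49 FPKM for Ezh1. Ezh2 had 43.2 ± 13.5 and 52.7 ± 8.87 FPKM and a difference of 0.30 (95% interval -0.70 to 1.31). The narrowest interval was that of Eed, -0.87 to 0.93, so even for Eed a log2 difference of 0.93 lay inside the interval. The 4 Eed values spanned only 0.15 on the log2 scale. Limma draws the variance of each gene toward that of genes at a similar level, and most of the width for Eed came from this. With 2 mice per genotype these intervals are wide, and a p that misses the threshold does not show equal levels.

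**Figure D2:**
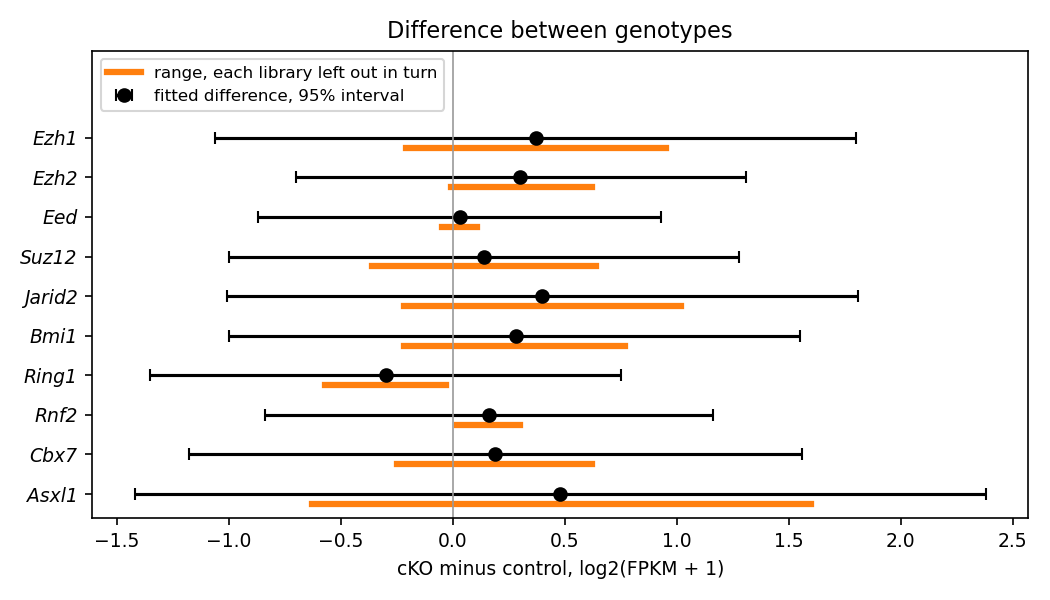
Difference of cKO minus control in log2(FPKM + 1) for each gene: black points and bars are the limma estimate with its 95% interval, and orange bars span the estimates when each library is left out in turn. The intervals rest on 2 mice per genotype and on a variance drawn in part from other genes. All 10 intervals include 0, and the orange bar crosses 0 for all members except Ring1 and Rnf2.

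Single libraries decided much of these estimates. Without control 2 the difference of Asxl1 was -0.63 and that of Suz12 -0.36, and without control 1 they were 1.60 and 0.64. Without cKO 1 and without cKO 2 the difference of Asxl1 was 0.97 and -0.01. Ring1 stayed negative (-0.57 to -0.03) and Rnf2 positive (0.02 to 0.30) whichever library was left out, but Ring1 was higher by 0.15 in cKO 2 than in control 1, the pair with the fewest transcripts of mature cells. In that pair the median difference of the members was 0.03, the largest was 0.50, for Cbx7, and 0 of 10 members differed by at least 2-fold, against 1.36% of all genes.

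Mice of the same genotype differed more. Between the control libraries 4 of 10 members were at least 2-fold lower in control 2, where 21.9% of all genes were, and 0 of 10 were at least 2-fold higher, where 13.7% were. The log2 differences were -2.23 for Asxl1, -1.24 for Jarid2, -1.16 for Ezh1, -1.0 for Suz12 and -0.99 for Bmi1. Ezh2 was lower by less, at -0.63, and Eed and Ring1 were higher, at 0.08 and 0.37. In all, 7 of 10 members had their lowest value in control 2, against 44.6% of all genes. Control 1 and cKO 2 were both above the other 2 libraries in 7 of 10 members, against 46.0% of all genes. Between the cKO libraries no member differed by 2-fold (0 of 10, against 19.1% of all genes), and the differences of cKO 2 minus cKO 1 ran from -0.34 for Ezh2 to 0.98 for Asxl1.

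The order of these differences followed transcript length, a property that the choice of the genes did not use. Ring1 and Eed, with longest coding transcripts of 2.03 and 2.07 kb, were not lower in control 2 than in control 1, and Asxl1, the longest at 6.98 kb, was lowest. Across the 10 genes the Spearman rho of length with that difference was -0.94, and across the 12428 tested genes with a length it was -0.68, as a description, since genes of a library share its preparation. Over all genes the median difference fell from 1.00 in transcripts up to 1 kb to -0.95 between 4 and 6 kb and -1.45 between 6 and 10 kb. Between 4 and 6 kb the differences of Suz12 (-1.0), Ezh1 (-1.16) and Jarid2 (-1.24) lay below the median of that range, by least for Suz12. Asxl1 (-2.23) also lay below the median of its range, as did Ezh2 (-0.63 against -0.07, between 2 and 3 kb) and Bmi1 (-0.99 against -0.55, between 3 and 4 kb). The remaining members lay above the median of their range: Rnf2 (-0.28) and Cbx7 (-0.25) above -0.55, and Eed (0.08) and Ring1 (0.37) above -0.07. The same order, with a smaller slope, appeared for cKO 1 minus control 1 (medians of 0.30 up to 1 kb and -0.78 between 6 and 10 kb), and little of it for cKO 2 minus control 1 (0.08 and -0.03).

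**Figure D3:**
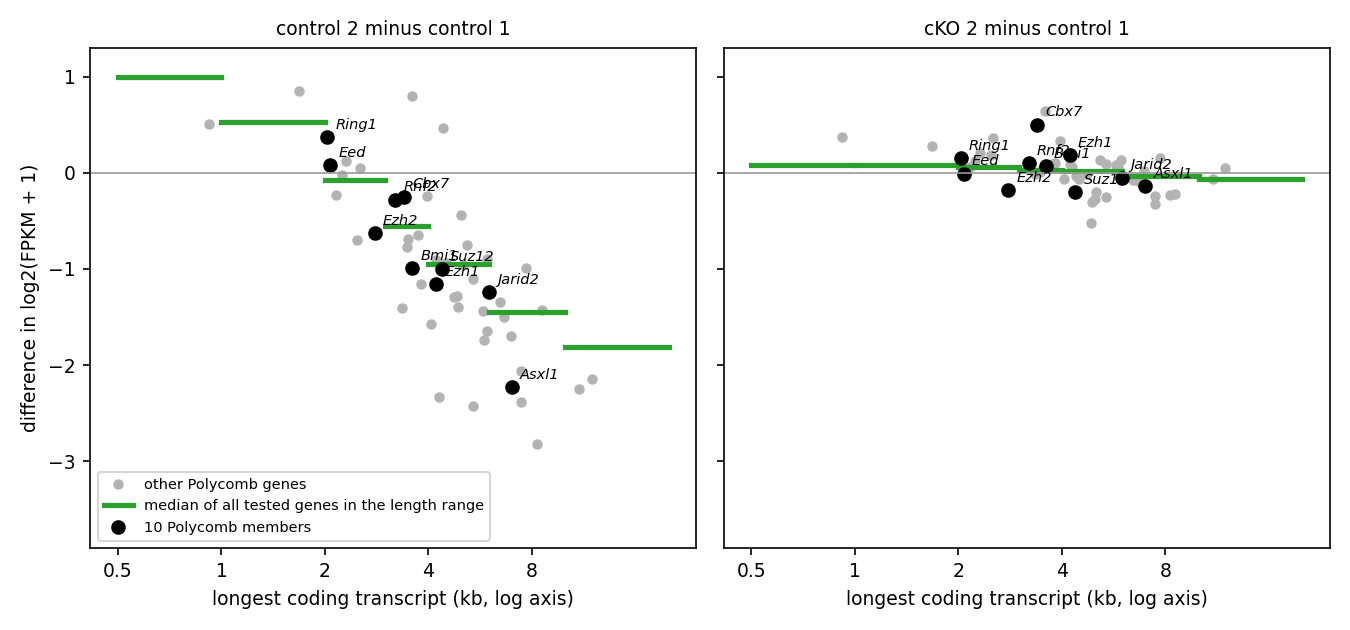
Difference in log2(FPKM + 1) between 2 libraries against the length of the longest coding transcript (kb, log axis): black points are the 10 members, grey points are 41 other Polycomb genes, and green lines are medians of all tested genes in each length range, with the shortest and longest ranges being open-ended. In control 2 minus control 1, on the left, members fall from 0.37 (Ring1) to -2.23 (Asxl1) with length, while in cKO 2 minus control 1, on the right, they lie between -0.20 and 0.50.

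Length also moved with the comparison of the genotypes. Over all genes the median fitted difference of cKO minus control rose from -0.22 in transcripts up to 1 kb to 0.33 between 6 and 10 kb. The Spearman rho of length with the fitted difference was 0.75 across the 10 members and 0.52 across the 12428 tested genes with a length. When the trend of each library's values on length was removed, a step chosen after seeing the data, 9 of 10 members had a narrower range over the 4 libraries, as did 8798 of 12428 genes. The median range of the members went from 0.94 to 0.50 on the log2 scale and that of all genes from 0.98 to 0.63. The range of Suz12 went from 1.00 to 0.23, of Jarid2 from 1.24 to 0.30 and of Asxl1 from 2.23 to 0.83. Eed was the member that did not narrow (0.15 and 0.27), and Rnf2 (0.15) and Suz12 then had narrower ranges than it. Ezh2 kept most of its range (0.79 and 0.71), with cKO 1 high at 0.39 above its mean and control 2 low at -0.32. Ring1 was lowest in cKO 1 before and after this step (-0.42 and -0.34). The fitted difference of Asxl1 became 0.16 and that of Ezh2 0.24, and 0 of 12428 genes passed. RNA integrity per library was not analysed here. The mature cell transcripts moved with the length trend only in part. Both set control 2 and cKO 1 apart from the other libraries, and the trend was steepest in control 2. Sums of erythroid and of macrophage and monocyte markers were also highest in control 2. As percentages of all FPKM, the erythroid sums of control 2 and cKO 1 were nearly equal (5.65 and 5.61). The T and NK cell sum was highest in control 2 too, but Nkg7 made up most of it. In that list Cd3e, Cd3d, Cd3g and Cd4 were also highest in control 2, and Klrd1, Gzma, Cd8a, Trac and Ncr1 were highest in cKO 1. Sums of neutrophil and of B and plasma cell markers were highest in cKO 1. The part of the mature cell transcripts was not tested.

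**Figure D4:**
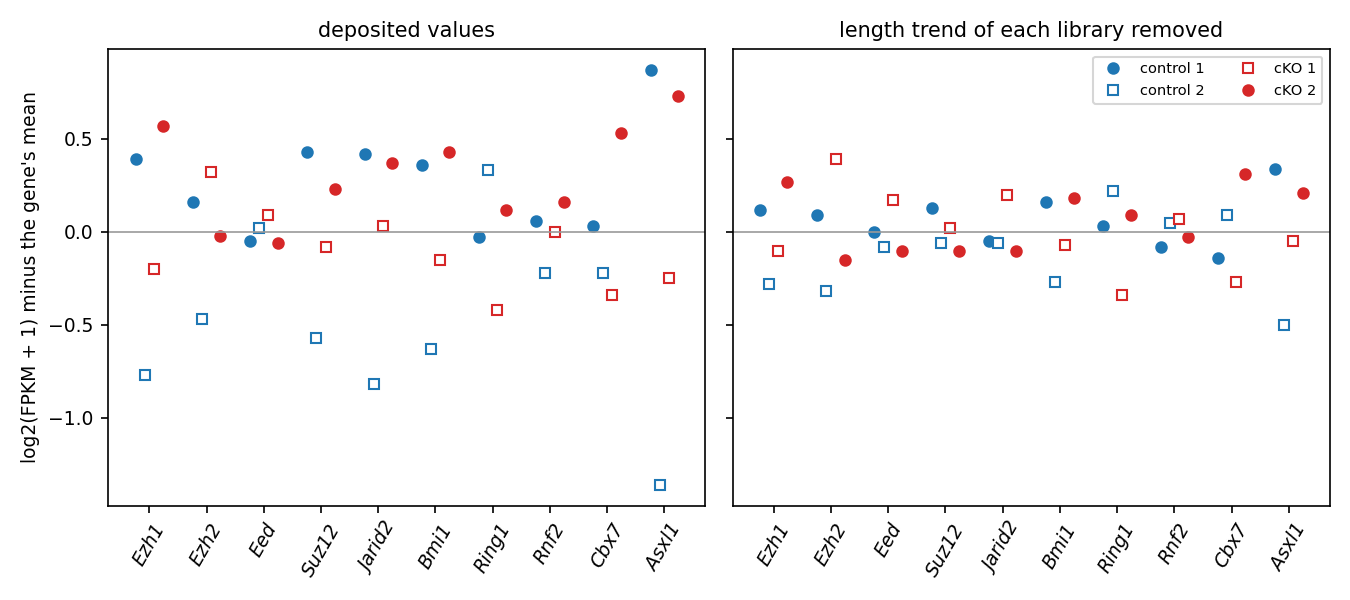
log2(FPKM + 1) of each gene in each library minus the gene's mean over the 4 libraries, for the deposited values (left) and after the trend on transcript length was removed (right); colours and symbols mark the library. The spread of Suz12, Jarid2 and Asxl1 narrows on the right, whereas Ezh2 in cKO 1 stays high, at 0.32 and 0.39.

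Ratios of paralogs within a library were compared next, since a plain ratio does not depend on the total of the library. Ezh2 exceeded Ezh1 in all 4 libraries, with a plain ratio of Ezh1 to Ezh2 of 0.236 and 0.149 in controls and 0.134 and 0.307 in cKO. The log2 ratio was -2.26 ± 0.37 in controls and -2.19 ± 0.79 in cKO (SD, n = 2 each; exact permutation test, 2-sided, p = 1.00, adjusted p = 1.00 over 4 pairs). The lowest Ezh1 to Ezh2 ratios were those of cKO 1 and control 2, and Ezh1 has the longer transcript (4.21 kb against 2.79 kb). Ring1 and Rnf2 were near equal in control 1 and cKO 2 (1.07 and 1.11), with Ring1 ahead in control 2 (1.72) and behind in cKO 1 (0.844).

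Bmi1 exceeded its paralog Pcgf2 by 5.65- to 11.8-fold, and Cbx7 was below its paralog Cbx8 in all 4 libraries, at ratios of 0.839 and 0.342 in controls and 0.256 and 0.754 in cKO. The log2 ratios of Ring1 to Rnf2, Bmi1 to Pcgf2 and Cbx7 to Cbx8 differed between genotypes by -0.46, 0.27 and -0.24, within the range of the mice (exact permutation test, 2-sided, p = 0.667 and adjusted p = 0.889 for each). A comparison of 2 mice with 2 cannot give a p below 0.33.

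**Figure D5:**
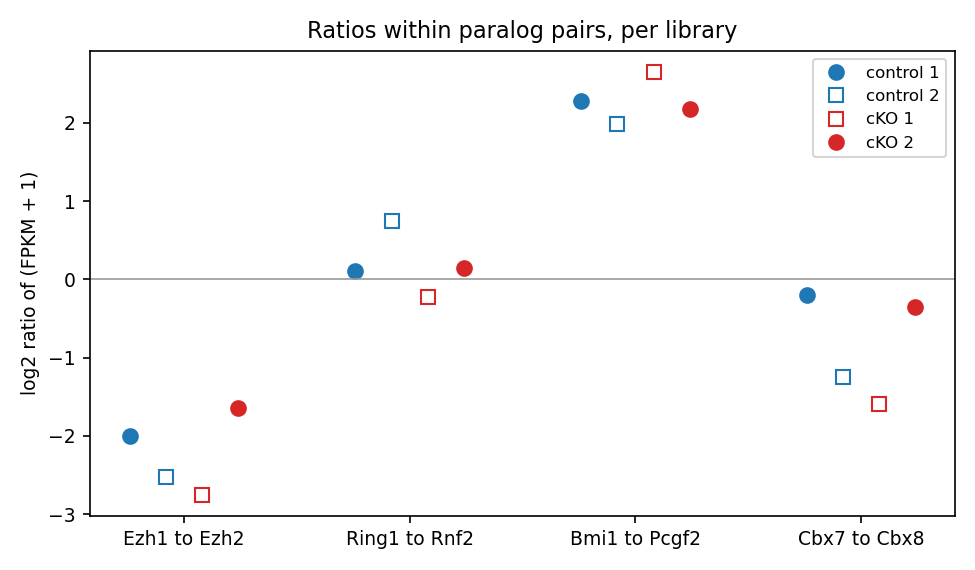
log2 ratio of (FPKM + 1) within 4 paralog pairs, with 1 point per library. Ezh1 lies below Ezh2 and Bmi1 above Pcgf2 in all 4 libraries, and the ranges of the red cKO points and the blue control points overlap in each pair.

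The other Polycomb genes were read from 5 lists of 44 genes, of which 41 could be tested. Of these, 0 passed in either direction and 0 had an unadjusted p under 0.05. Both cKO values lay above both control values in 2 of 41 (Phc2 and Phf19, the latter named after its values were seen) and below in 0, against 6.31% and 5.73% of all genes. Their median difference was 0.27, with 33 of 41 positive, against 57.6% of all genes. In control 2, 32 of 41 were lowest, against 44.6% of all genes, shares not matched for length. Their median transcript length was 4.85 kb, against 2.79 kb for all tested genes and 3.49 kb for the 10 members.

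Among PRC2 accessory genes (7 of 8 tested), the histone chaperones Rbbp7 and Rbbp4 were the most abundant. Rbbp7 had 121, 119, 109 and 132 FPKM in control 1, control 2, cKO 1 and cKO 2, and Rbbp4 had 62.3, 86.3, 81.1 and 61.0. Both were steadier than most members, with spans of 1.21- and 1.41-fold, although reads of these paralogs can be shared with each other and with processed copies, which leaves their levels uncertain. Aebp2, a DNA-binding cofactor, had 16.3, 8.29, 14.1 and 18.0 FPKM, low in control 2 as Jarid2 was. Ezhip, an inhibitor of PRC2 in germ cells, was listed at 0 in all 4 libraries.

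Among 10 further canonical PRC1 genes, Phc2, a polyhomeotic subunit that clusters the complex, had 22.9 and 19.2 FPKM in controls and 29.0 and 25.4 in cKO 2 and cKO 1, a difference of 0.35 (SE 0.39, adjusted p = 1.00 by limma). The chromodomain genes Cbx6 and Cbx2 had differences of 0.22 (SE 0.74) and 0.60 (SE 0.56). Cbx6 had 31.1 and 32.4 FPKM in control 1 and cKO 2 and 8.62 and 11.5 in the other 2 libraries. Variant PRC1 genes (13 of 14 tested) included Usp7, a deubiquitinase, with 42.7 and 16.8 FPKM in controls and 31.1 and 42.4 in cKO. Dcaf7 and Rybp, an adaptor and the subunit that replaces Cbx proteins, were also lowest in control 2, at 12.8 and 4.68 FPKM.

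Partners of Asxl1 in the deubiquitinase were low in control 2. In the 9 of 10 tested genes of that list the median of control 2 minus control 1 was -2.15. Of these, 9 of 9 were lowest in control 2, against 44.6% of all genes, a share not matched for length. Their longest coding transcripts ran from 3.46 kb (Bap1) to 11.93 kb (Asxl2), against a median of 2.79 kb for all tested genes. The demethylase gene Kdm1b, named after its values were seen, did not share the split of Asxl1, with 4.01, 2.69, 3.72 and 3.14 FPKM in control 1, control 2, cKO 1 and cKO 2. The host cell factor Hcfc1 had 54.3, 6.85, 22.9 and 46.0 FPKM in control 1, control 2, cKO 1 and cKO 2, and the glycosyltransferase Ogt had 63.1, 10.9, 19.8 and 67.4. Asxl2, the paralog of Asxl1 with a transcript of 11.93 kb, had 9.42, 1.35, 5.20 and 9.82 FPKM. The H3K27 demethylases Kdm6a and Kdm6b, which undo the PRC2 mark, had differences between genotypes of 0.35 (SE 0.71) and 0.23 (SE 0.66), and both were lowest in control 2.

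Genes known to be held down by Polycomb in blood cells were read as a list of 16, of which 11 could be tested and 0 passed. The senescence genes Cdkn2a and Cdkn2b, the classical targets of Bmi1, were near 0, with Cdkn2a at 0.105 FPKM in control 1, Cdkn2b at 0.0986 in cKO 1 and each listed at 0 in the other 3 libraries. Hoxa9 and Meis1, homeobox genes of stem cells, had 31.7 and 37.8 FPKM in control 1, 21.3 and 19.1 in control 2, 11.6 and 11.5 in cKO 1 and 39.2 and 40.4 in cKO 2. Both were lowest in cKO 1 rather than in control 2, where the members were lowest most often. Cdkn1a, which encodes the cell cycle inhibitor p21, was the only one of the 11 tested genes with both cKO values below both control values (background 5.73% of all genes), at 13.5 and 11.9 against 19.7 and 40.2 FPKM (difference -1.09, SE 0.48, adjusted p = 1.00 by limma). Among the untested genes Lin28b also had both cKO values below both control values, with all 4 below 0.1 FPKM. Cdkn1a is also a p53 target, and its difference did not pass.

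The genes whose pattern over the 4 libraries was nearest to Asxl1 and Ezh1, the 2 members with the widest ranges, were found by the Euclidean distance of centred log2(FPKM + 1) values among 8943 genes. Nearest to Asxl1 were Ankrd28, Nup210 and Cnot1, at distances of 0.0281, 0.0328 and 0.0407. Cnot1 had 44.9, 8.94, 20.6 and 42.2 FPKM in the order control 1, control 2, cKO 1 and cKO 2. Nearest to Ezh1 were Pacs1, Fcho1 and Camta2, at 0.0190, 0.0242 and 0.0291. The longest coding transcripts of the 3 genes nearest to Asxl1 were 6.71, 7.04 and 8.39 kb, and those of the 3 nearest to Ezh1 were 4.87, 3.19 and 4.63 kb.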

How the data were processed

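RNA-seq libraries of LSK cells from 4 mice were analysed. The submitters' processing notes name build mm10, DESeq2 2.11.40.6, featureCounts 1.6.4, HISAT2 2.1, cutadapt 1.16.5 and bcl2fastq 2.19, with no role for each. No annotation and no strand setting is named there. The values that the authors deposited, in a table for each library, were taken as FPKM (fragments scaled to transcript length and library size) from their form, because the file headers give only library names. FPKM values are shares of a library and depend on the transcript length used.

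The 13148 genes that reached 1 FPKM in 2 or more libraries were tested by limma 3.58.1 in R 4.3.3 on log2(FPKM + 1) with an intensity trend, 2-sided, Benjamini-Hochberg adjusted over all genes at 0.05. Fold changes on this scale understate those of low genes. Limma p-values and intervals rest on the spread between these mice, with the variance of each gene drawn toward that of genes at a similar level. The fit was tested on simulated data with independent noise and large changes. That setting does not cover the split shared by these libraries or differences as small as those of the members. The exact permutation test used scipy 1.17.1. Positions and lengths (longest coding transcript; 94.5% of tested genes) are from GENCODE M21 on GRCm38, the assembly also called mm10. Promoters are from RefSeq on GRCm38.p6.

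Members and gene lists were chosen with earlier results of these data known. A listed gene is not reported here. Named from each list were the 2 genes with the highest mean and the 1 with the smallest p. The pattern search kept genes with a mean of at least 4 FPKM. Alternatives were another pseudocount (0.1), no filter, 2 scalings, a common prior variance, a replicate block, each library left out and, added later, removal of the length trend (lowess, span 0.3), a crossed block and the pair control 1 and cKO 2.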

Additional observations from a re-analysis of the deposited data

How the results depend on the processing

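No Polycomb member passed the test under any alternative that gave one. The count of all genes called higher and lower went from 0 and 0 to 3 and 1 with the replicate block. The labels share replicate numbers but name no link between mice, and the same-numbered libraries deviated from their group means in opposite directions (correlation -0.71 over 13148 genes). With the numbers crossed, chosen after seeing the data, 37 genes were called higher and 65 lower. With each library left out in turn, 0 to 32 genes were called higher and 0 to 5 lower: 32 higher and 2 lower without cKO 2, 5 lower without cKO 1 and none without either control. The cause was not tested.

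The members' median difference ranged from -0.16 to 0.63 with each library left out. The range was -0.21 to 0.95 for Ezh1, -0.01 to 0.62 for Ezh2, -0.05 to 0.11 for Eed, -0.36 to 0.64 for Suz12, -0.22 to 1.02 for Jarid2, -0.22 to 0.77 for Bmi1, -0.25 to 0.62 for Cbx7 and -0.63 to 1.60 for Asxl1. With another pseudocount, filter, scaling, prior variance or block, 59 of 60 member differences kept their sign, and Eed turned to -0.03 with median-of-ratios scaling. The filter, prior and block leave the estimate itself as it is. The 4 paralog ratio differences kept their sign with each pseudocount and scaling tried. With the length trend removed Suz12 turned to -0.08. Between cKO 2 and control 1 alone, Ezh2 was at -0.18, Eed at -0.01, Suz12 at -0.20, Jarid2 at -0.05, Asxl1 at -0.14 and Ring1 at 0.15. The unknown read depth limits what can be said of the low Cbx7 values.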

Other observations

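Trithorax genes, which counteract Polycomb by methylating active promoters, spanned transcript lengths from 0.79 to 19.82 kb. Of these, 9 of 11 were lowest in control 2, against 44.6% of all genes, a share not matched for length. The methyltransferase genes Kmt2a and Kmt2d, with longest coding transcripts of 16.47 and 19.82 kb, had 26.5 and 26.7 FPKM in control 1, 0.947 and 0.980 in control 2, 7.74 and 7.19 in cKO 1 and 24.1 and 23.5 in cKO 2. They were chosen after their values were seen. Dpy30, a small shared subunit of 0.79 kb, ran the other way, with 46.0, 106, 63.9 and 39.3 FPKM. Psip1, a chromatin tether of 3.25 kb, had 50.9, 42.1, 42.0 and 47.4 FPKM. Men1, the menin scaffold, had 26.8 and 19.2 FPKM in controls and 30.2 and 28.6 in cKO, with a difference of 0.36 (SE 0.40, adjusted p = 1.00 by limma). No Trithorax gene passed (0 of 11, and 0 of 11 at an unadjusted p under 0.05).

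The B cell factors Ebf1 and Pax5, which are held down by Bmi1 in stem cells, stood out in 1 mouse only. Ebf1 had 0.870, 1.88, 9.30 and 1.13 FPKM in control 1, control 2, cKO 1 and cKO 2, and Pax5 had 1.38, 1.51, 8.09 and 1.50. Both were named after their values were seen. The summed B and plasma cell markers, a list that holds both genes, were highest in the same library, at 1161 FPKM against 68.1, 601 and 76.8 in the others, and their part was not tested. Bmi1 in that library, at 11.2 FPKM, lay between the control values.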
